A study of Homo sapiens with 6 samples.

Results

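The miR-130 and miR-301 family was followed in HuH7, a long-established line of human hepatocellular carcinoma cells, after cisplatin, a platinum drug that crosslinks DNA. Probes were taken by name: every human probe called miR-130a, miR-130b, miR-301a or miR-301b, of either arm or with no arm stated. This gave 7 of the 2019 human miRNA probes on the array: hsa-miR-130a-3p, hsa-miR-130b-3p, hsa-miR-301a-3p, hsa-miR-301b, hsa-miR-130a-5p, hsa-miR-130b-5p and hsa-miR-301a-5p, written without the species prefix from here on. The tested cells received 1 µg/ml cisplatin for 24 h, and the control cells were kept without the drug. Total RNA of 3 cisplatin samples and 3 control samples was labelled in 1 colour, each on an array of its own. Nothing in the labels says that a group's samples came from separate cultures. Each p-value therefore reflects the spread of these samples alone, and that spread may be technical.

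A miRNA guides the silencing complex to messenger RNAs chiefly through its seed, the bases near its 5′ end, so miRNAs with the same seed can share targets. The miR-130 and miR-301 family is defined by such a shared seed in the 3p arms, which are the arms known to act as guides. miR-130a is known in blood vessel growth, where it represses the homeobox genes MEOX2 and HOXA5. miR-130b is known to repress TP53INP1, a gene activated by p53, and PPARG, a regulator of fat cell genes.

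The mature sequences below are those of RefSeq (GRCh38.p14), with the seed (bases 2 to 8 from the 5′ end) in capitals, and show what the probes of the family have in common. Of the 7 members, 6 had a mature sequence in the table used, which lists none for miR-130a-3p. The array's miR-301b, named without an arm, was matched to the mature miRNA listed under its gene, miR-301b-3p.

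miR-130b-3p: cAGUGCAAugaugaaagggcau

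miR-301a-3p: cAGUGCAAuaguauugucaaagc

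miR-301b: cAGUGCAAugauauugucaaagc

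miR-130a-5p: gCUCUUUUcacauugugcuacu

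miR-130b-5p: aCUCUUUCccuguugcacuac

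miR-301a-5p: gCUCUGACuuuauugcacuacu

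The printed 3p members carry the same seed, while each 5p arm has a seed of its own. miR-301a-3p and miR-301b differ at 2 of 23 bases, A10G and G11A (the base of miR-301a-3p first, counted from the 5′ end). miR-130b-3p and miR-301b are identical over their first 12 bases. The capture sequences of the probes were not used here, and how far a probe also reads a close relative was not tested.

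The genes lie at separate sites. RefSeq places MIR130A at chr11:57641198-57641286 on the plus strand, overlapping the noncoding RNA gene MIR130AHG. MIR130B lies at chr22:21653304-21653385 on the plus strand, 256 bases after the mature miR-301b at chr22:21653025-21653047, and both overlap the transcribed pseudogene LOC107985532. MIR301A at chr17:59151136-59151221, on the minus strand, and MIR454, 13263 bases away, both overlap SKA2, a protein-coding gene of the mitotic spindle. Whether these positions are exonic or intronic was not analysed here. The hairpins of MIR130B and MIR301A, with both mature arms in capitals, show which stretches the 5p and 3p probes are named for.

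MIR130B: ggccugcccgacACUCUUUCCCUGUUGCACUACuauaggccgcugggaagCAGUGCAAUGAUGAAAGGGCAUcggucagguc

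MIR301A: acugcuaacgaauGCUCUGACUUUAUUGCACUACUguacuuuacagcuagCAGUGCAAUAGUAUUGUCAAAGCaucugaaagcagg

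A probe counted as detected on an array where its raw foreground, the median of the spot's pixels in scanner units, exceeded the mean plus 2 SD of that array's 925 blank spots. These limits ran from 209 to 247 on the cisplatin arrays and from 220 to 239.8 on the control arrays, and 329 to 713 and 500 to 738 probes exceeded them. The lowest count was that of cisplatin replicate 2, which also had the widest spread of blank spots. All 4 liver markers examined (miR-122-5p, miR-192-5p, miR-194-5p and miR-148a-3p) were detected on all 6 arrays. Of all 2019 human probes, 243 were detected on all 6 arrays. Of 5 blood cell markers 0 were detected on all 6 arrays, though each was detected on at least 1. Among 6 endothelial, stromal and muscle markers 3 (miR-126-3p, miR-143-3p and miR-145-5p) were detected on all 6 arrays, at raw signals between 243 and 346. The summed raw signal of those 6 markers ran from 1400 to 1612 on the cisplatin arrays and from 1409 to 1546 on the control arrays. Of 3 neural markers (miR-124-3p, miR-9-5p and miR-128) 1, miR-128, was detected on all 6 arrays, at raw signals between 329 and 442.

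The question posed by the series was which miRNAs differ after cisplatin. miR-130a-3p was the member whose signal was higher on every cisplatin array than on any control array, by 0.35 on the log2 scale, but it did not pass the test over all probes. miR-130b-3p, miR-301a-3p and miR-301b had overlapping raw signals in the groups and did not pass either. The 3 probes for 5p arms lay at the blank-spot limit in both groups and were not tested. Of the 4 members tested, limma called 0 after Benjamini-Hochberg adjustment at 0.05 over the 324 tested probes, where 0.309% of all tested probes were called, namely miR-1304-3p alone, detected on 3 of 3 cisplatin and 0 of 3 control arrays. At an unadjusted limma p under 0.05 the count was 1 of 4 members, miR-130a-3p, against 15.7% of all tested probes. With the replicate number as a block, 0 of the 324 were called.

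**Figure D1:**
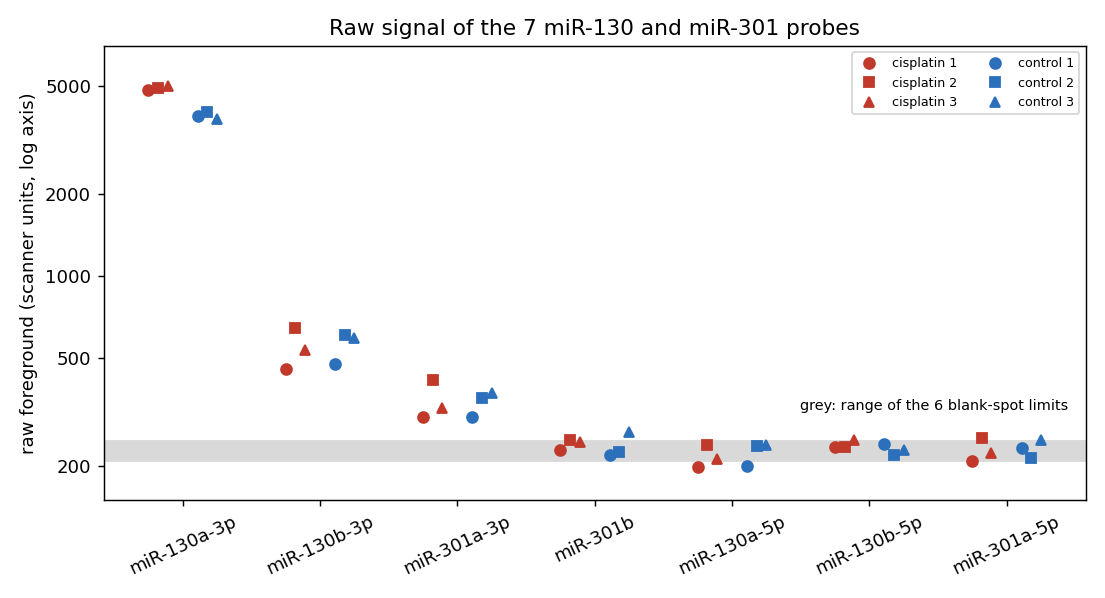
Raw foreground of the 7 members on each array (log axis, scanner units), with cisplatin in red left of control in blue, and the range of the 6 blank-spot limits in grey. miR-130a-3p lies between 4825 and 4998 on the cisplatin arrays, above the 3779 to 3998 of the control arrays, while the groups overlap for the other members.

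miR-130a-3p had raw foreground signals of 4825, 4908 and 4998 on cisplatin arrays 1, 2 and 3, against 3873, 3998 and 3779 on control arrays 1, 2 and 3. The groups did not overlap, as was the case with cisplatin higher for 9.57% of the tested probes. Less the local background, the values were 4691, 4750 and 4854 in cisplatin and 3730, 3837 and 3629 in control samples. The raw means were 4910 ± 86.5 in cisplatin and 3883 ± 109.9 in control samples (SD, n = 3 each), a ratio of 1.26. In each of the same-numbered pairs the cisplatin array was the higher, with ratios of 1.25, 1.23 and 1.32 for numbers 1, 2 and 3.

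Among all human probes miR-130a-3p held rank 6 by raw signal on each of the 3 cisplatin arrays, and ranks 7, 9 and 9 on control arrays 1, 2 and 3. Quantile normalization gives every array the same set of values by rank, so the normalized log2 signal was 12.24 on all 3 cisplatin arrays. It was 12.07, 11.81 and 11.81 on control arrays 1, 2 and 3. The normalized values did not overlap either, as for 8.64% of the tested probes with cisplatin higher, and cisplatin was higher in 3 of 3 numbered pairs, as for 19.1%. The zero spread in the cisplatin samples follows from the fixed rank, so the standard error of this probe does not measure the spread between them. Before normalization between arrays the log2 values were 12.20, 12.23 and 12.25 on cisplatin arrays 1, 2 and 3. They were 11.88, 11.92 and 11.84 on control arrays 1, 2 and 3.

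On the log2 scale miR-130a-3p differed by 0.35 (SE 0.085, 95% interval 0.14 to 0.56), a fold of 1.27. The unadjusted limma p was 0.00757, the 17th smallest of 324, and 8.02% of the tested probes were under 0.05 with cisplatin higher. The limma adjusted p was 0.129, so the difference did not pass. It passed when control replicate 1 was left out (0.43, limma adjusted p = 0.0484). The remaining normalized values were then identical within each group, 12.24 in cisplatin and 11.81 in control samples. The standard error of that fit therefore did not measure the spread between samples of this probe. The difference also passed with slide position as a random block (0.32, limma adjusted p = 0.0201). That fit estimated a negative correlation within positions (-0.62) and so had smaller standard errors. With cyclic loess in place of quantile normalization the log2 fold change was 0.13, and with scaling to the spike control spots 0.17, or 0.28 relative to the shift of all tested probes.

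Slide position here means the number headed Cell in the scanner output, which was taken to be the place on a slide. Positions were not shared between the groups. Cisplatin arrays lay at positions 4, 2 and 4 and control arrays at 3, 1 and 3 for numbers 1, 2 and 3. The effects of position and of cisplatin cannot be told apart. The log2 difference for miR-130a-3p was 0.43 between the arrays of number 2 (positions 2 and 1). It was 0.30 when only the arrays of numbers 1 and 3 were fitted (positions 4 and 3).

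miR-130b-3p had raw signals of 456, 643 and 534 on cisplatin arrays 1, 2 and 3, and of 474, 605 and 591 on control arrays 1, 2 and 3. All 6 values exceeded their blank limits, and the groups overlapped. After normalization the cisplatin array was the lower in 3 of 3 same-numbered pairs, as for 20.4% of the tested probes, with differences of -0.24, -0.048 and -0.35. The estimate was -0.21 on the log2 scale (SE 0.11, 95% interval -0.48 to 0.059, limma adjusted p = 0.448). With scaling by each array's 75th percentile it was -0.024, or -0.12 relative to the shift of all tested probes. Within number 2 (positions 2 and 1) it was -0.048, and -0.30 in the others.

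miR-301a-3p had raw signals of 302, 415 and 328 on cisplatin arrays 1, 2 and 3, and of 303, 356 and 371 on control arrays 1, 2 and 3. These overlapped, and the highest and the lowest of the 6 were both cisplatin arrays. Its log2 difference was -0.11 (SE 0.12, 95% interval -0.41 to 0.19, limma adjusted p = 0.778). It was 0.13 between the arrays of number 2 and -0.23 in the others, so the positions did not share a sign.

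miR-301b, whose gene neighbours MIR130B, lay close to the blank-spot limit. Its raw signals were 230, 249 and 246 on cisplatin arrays 1, 2 and 3, detected on 3 of 3, and 220, 225 and 267 on control arrays 1, 2 and 3, detected on 1 of 3. It entered the test through the cisplatin arrays, yet the highest value of all was that of control replicate 3. Its log2 difference was 0.059 (SE 0.14, 95% interval -0.29 to 0.41, limma adjusted p = 0.903), and -0.030 relative to the shift of all tested probes under 75th percentile scaling.

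The 5p arms, the passenger strands of these hairpins, gave signals of 199 to 254 over all arrays. miR-130a-5p was detected on 0 of 3 cisplatin and 1 of 3 control arrays. miR-130b-5p and miR-301a-5p were each detected on 2 of 3 cisplatin and 2 of 3 control arrays. A fit without the detection filter gave log2 differences of -0.091, 0.25 and -0.040 for the 3 probes in that order, and none passed (limma adjusted p from 0.941 to 0.986).

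**Figure D2:**
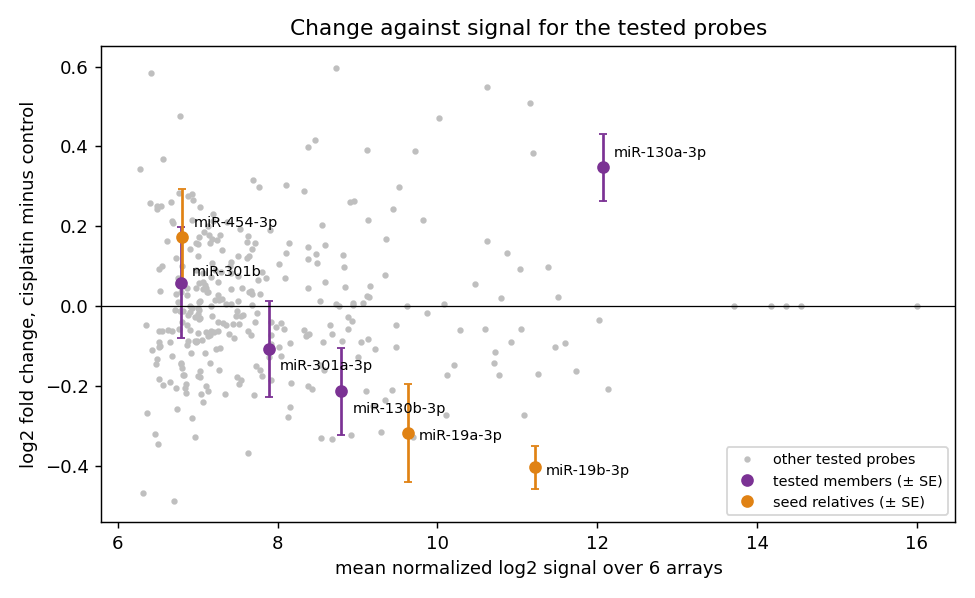
Log2 fold change (cisplatin minus control) against mean normalized log2 signal over the 6 arrays for the 324 tested probes, with the 4 tested members in purple and the tested seed relatives in orange (bars: SE). miR-130a-3p stands at 0.35 at the bright end, and the other members lie between -0.21 and 0.059.

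Over the 4 tested members the log2 fold changes ranged from -0.21 to 0.35 and their median was -0.024, beside -0.012 for all 324 tested probes. Of the 3 members detected on all 6 arrays 1 was positive and 2 were negative, with a median of -0.11, and 47.8% of all tested probes were positive. The fourth, miR-301b, entered through the cisplatin arrays alone. With spike control scaling, no normalization, median scaling or the 75th percentile, the median of the 4 relative to the shift of all tested probes was -0.040. These settings differ only by 1 constant per array, so they must give the same value and count as 1 result. With the shift not taken off, the median was positive between the arrays of number 2 (0.15), without cisplatin replicate 3 (0.027) and without control replicate 3 (0.089). With the shift taken off, it stayed positive in these settings (0.15, 0.031 and 0.10 in that order). No direction is therefore given for the family. The log2 fold change of miR-130a-3p was the 13th highest of the 324.

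Since members share each array, a factor common to the array cancels in their ratio, apart from the offset added to each signal. Such log2 ratios were taken before normalization between arrays, and their differences between the groups say only whether members changed unequally. For miR-130a-3p over miR-130b-3p, the ratio relative to its control mean was 0.66, 0.069 and 0.46 on cisplatin arrays 1, 2 and 3, and 0.26, -0.11 and -0.15 on control arrays 1, 2 and 3. It was higher with cisplatin in 3 of 3 numbered pairs, with a mean difference of 0.40, but the groups overlapped (exact two-sided permutation p = 0.2, n = 3 each). The difference was 0.26 without cisplatin replicate 1, 0.56 without cisplatin replicate 2, and 0.56 after quantile normalization (exact permutation p = 0.1).

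The ratio of miR-130a-3p over miR-301a-3p differed by 0.33 (exact permutation p = 0.3), was higher with cisplatin in 2 of 3 pairs and overlapped between the groups. It was 0.22 without control replicate 3 or cisplatin replicate 1, and 0.51 without cisplatin replicate 2. The ratio of miR-130a-3p over miR-301b differed by 0.31 (exact permutation p = 0.1), but miR-301b was not above the blank-spot limit on control arrays 1 and 2. This difference was 0.16 with plain background subtraction (exact permutation p = 0.8), 0.065 with cyclic loess (exact permutation p = 0.9) and 0.14 without control replicate 3. Among the ratios of the other 3 members the mean differences were -0.069, -0.089 and -0.020, with exact permutation p from 0.5 to 1. Adjusted over the 6 pairs compared, p lay between 0.6 and 1, so unequal change within the family was not separated from the spread between samples by this test. With 3 against 3 samples the exact test cannot give a p below 0.1, and no other test of the ratios was run.

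**Figure D3:**
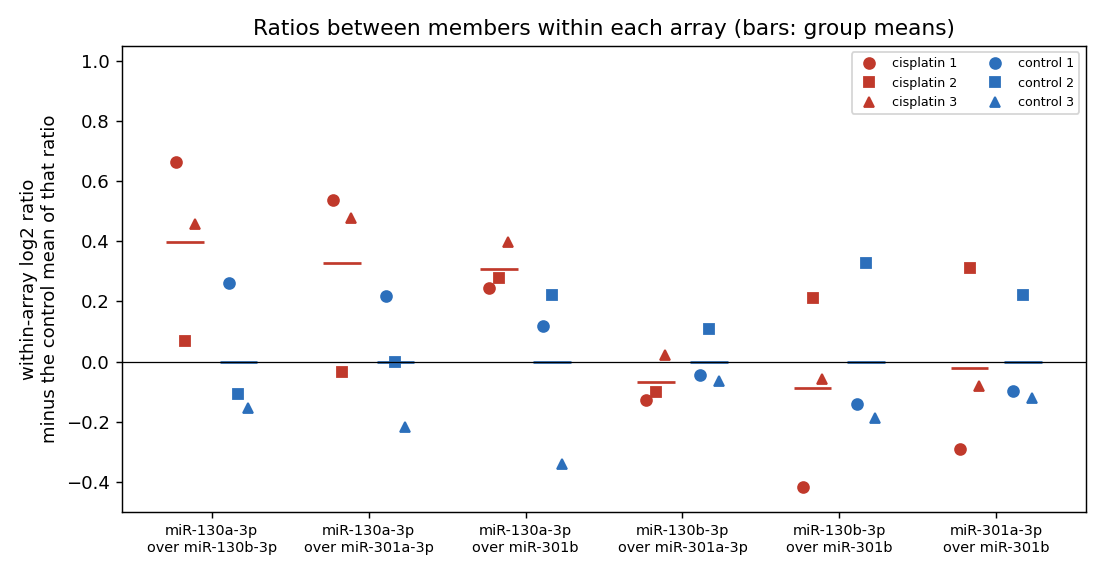
Within-array log2 ratios of the 4 tested members on each array, each relative to the control mean of that ratio, with cisplatin in red left of control in blue and bars at the group means. The cisplatin means of the 3 ratios with miR-130a-3p lie at 0.40, 0.33 and 0.31, and those of the other ratios between -0.089 and -0.020.

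Beyond the members, 3 miRNAs with the same seed were listed for comparison, and 2 whose seed is shifted by 1 base. Their RefSeq sequences, with the seed in capitals, show the hexamer GUGCAA that all of them hold, from base 3 in those with the family seed and from base 2 in the miR-19 sequences.

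miR-454-3p: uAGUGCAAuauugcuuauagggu

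miR-3666: cAGUGCAAguguagaugccga

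miR-4295: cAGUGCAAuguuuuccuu

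miR-19a-3p: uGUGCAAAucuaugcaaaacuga

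miR-19b-3p: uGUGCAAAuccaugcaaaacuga

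miR-454-3p, which neighbours MIR301A in SKA2, had raw signals of 220, 266 and 261 on cisplatin arrays 1, 2 and 3, and of 220, 255 and 259 on control arrays 1, 2 and 3. It was detected on 3 of 3 cisplatin and 2 of 3 control arrays, and differed by 0.17 on the log2 scale (SE 0.12, limma adjusted p = 0.597). The difference was 0.041 without background correction. With spike control scaling it was -0.042, or 0.069 relative to the shift of all tested probes. The raw values of miR-454-3p were almost the same in both groups. Its other arm, miR-454-5p, was detected on 1 of 3 cisplatin and 0 of 3 control arrays. miR-3666 was detected on 0 of 6 arrays, and miR-4295 on 1 of 3 cisplatin and 0 of 3 control arrays.

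The miR-19 miRNAs, members of the miR-17 to miR-92 clusters, stood on the opposite side from miR-130a-3p. miR-19b-3p had raw signals of 1895, 3080 and 2544 on cisplatin arrays 1, 2 and 3, and of 2211, 3082 and 2969 on control arrays 1, 2 and 3. The raw signals overlapped, and in each numbered pair the cisplatin array was the lower, with ratios of 0.857, 0.999 and 0.857. After normalization the cisplatin array was also the lower in 3 of 3 pairs, as for 20.4% of the tested probes. The log2 difference of miR-19b-3p was -0.40 (SE 0.054, limma adjusted p = 0.0706). With the 75th percentile it was -0.13, or -0.22 relative to the shift of all tested probes. The control values of miR-19b-3p were identical after normalization because it held rank 13 on each control array. Its standard error therefore does not measure the spread between the control samples. miR-19b-3p passed without background correction (limma adjusted p = 0.0223), with slide position as a random block (limma adjusted p = 0.00778) and without cisplatin replicate 2 (limma adjusted p = 0.0473). Without normalization between arrays its log2 difference was -0.15 (limma adjusted p = 0.812), or -0.22 relative to the shift of all tested probes. miR-19a-3p stood at -0.32 on the log2 scale (SE 0.12, limma adjusted p = 0.310). With the 75th percentile it stood at -0.033, or -0.13 relative to the shift of all tested probes.

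The tested probes whose normalized log2 values ran most like each member over the 6 arrays were picked by Pearson's r among 318 others. For miR-130a-3p they were miR-1229-5p (r = 0.956), miR-30d-5p (0.952) and miR-425-3p (0.920). For miR-130b-3p they were miR-196a-5p (0.960), miR-6087 (0.918) and miR-422a (0.914). For miR-301a-3p they were miR-28-5p (0.945), miR-204-5p (0.924) and miR-885-5p (0.903). These r describe 6 arrays that share the contrast and each array's normalization, and no member was among the nearest of another.

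The log2 fold change of miR-130a-3p was positive in the main analysis and under all 26 alternatives that gave it a value, from 0.13 to 0.43. That of miR-130b-3p was negative under all 26, from -0.32 to -0.024. Some alternatives, such as the replicate block, the detection filters and the moderation, could not change these values. Leaving out a cisplatin array could not change that of miR-130a-3p either, since its normalized cisplatin values were identical. miR-301a-3p and miR-301b took both signs, from -0.23 to 0.13 and from -0.14 to 0.20. The limma adjusted p of miR-130a-3p ranged from 0.0201 to 0.941, and it passed in 2 alternatives. Of these, the fit without control replicate 1 had no spread in the normalized values of this probe within either group.

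**Figure D4:**
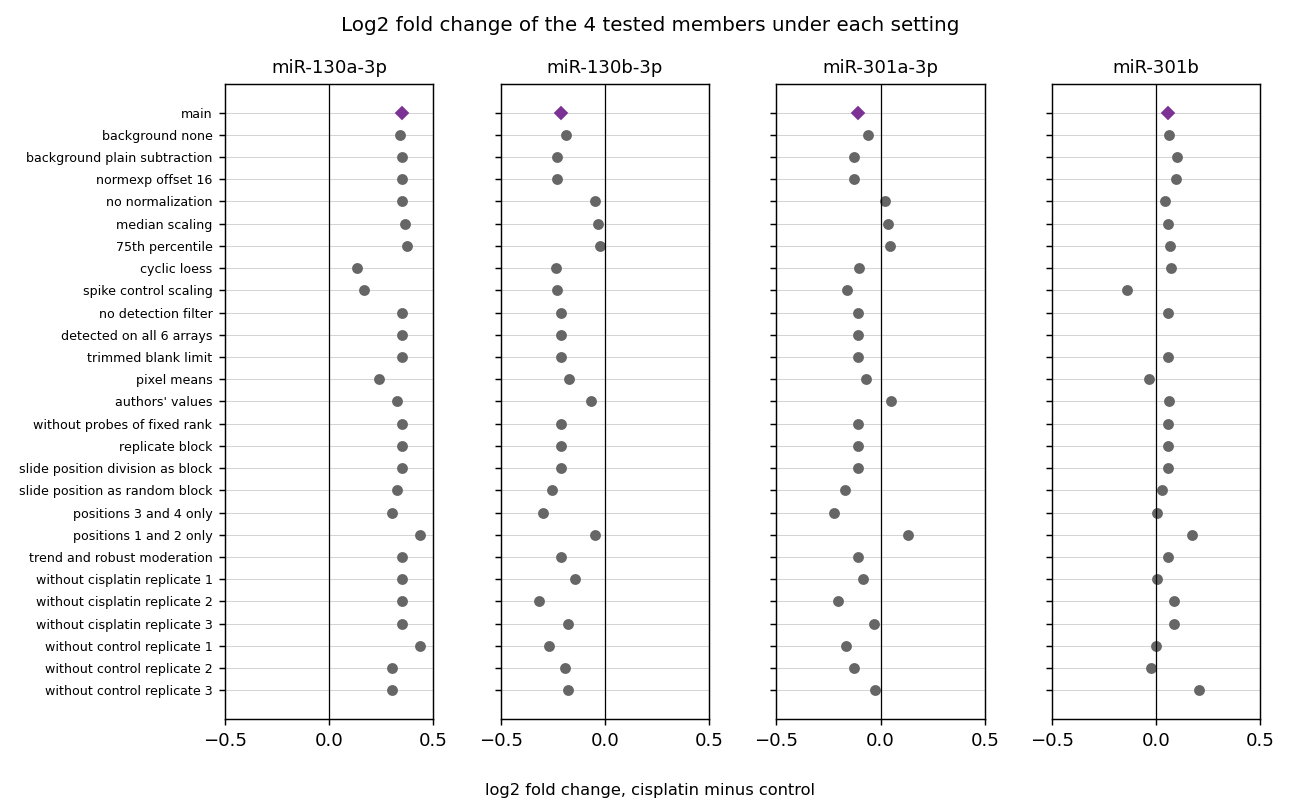
Log2 fold change (cisplatin minus control) of the 4 tested members in the main analysis (purple diamond) and under each alternative setting (grey). miR-130a-3p stays between 0.13 and 0.43 and miR-130b-3p between -0.32 and -0.024, while miR-301a-3p and miR-301b cross 0.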

How the data were processed

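The scanner output of 6 one-colour arrays gave, per the file headers, intensity as pixel medians and means for every spot and the background around it. RNA was labelled with Hy5, per the labels. No source used here names the scanner or its software. The authors' deposited table holds intensity on a linear scale, equal to the foreground median less the trimmed mean of the blank spots, divided by 1 factor per array (largest relative residual 4.7e-10). It served as an alternative only.

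From the deposited medians, limma 3.58.1 in R 4.3.3 removed background by normexp with an offset of 50 and quantile-normalized the human probes, and log2 values were taken. The offset shrinks differences of dim probes. For miR-454-3p the log2 difference was 0.25 with an offset of 16 and 0.17 with the offset of 50. The 324 probes detected throughout either group were tested with lmFit and eBayes, with 4 residual degrees of freedom and 1.52 from the prior, and p-values were adjusted by Benjamini-Hochberg. Ratios between members were compared with exact two-sided permutation tests. The number of arrays limits the precision. The quantile normalization and the limma fit were also run on simulated data with independent noise for each probe. That simulation did not model slide position, and its outcome is not given here. Figures were drawn with matplotlib 3.10.9.

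Deviations from the group means of same-numbered samples correlated by 0.440, 0.235 and 0.204 for numbers 1, 2 and 3. Cisplatin 2 and control 3 also correlated (0.229). The labels' numbers were taken to pair the samples in the pair counts and with the replicate block. The main fit and the permutation tests treated the samples as unpaired. Members and lists were chosen with earlier results of these data known. Text names follow a rule: all members, their seed and hairpin relatives, the 3 probes most like each member detected on all 6 arrays, markers, and probes past the threshold if 5 or fewer. Alternatives covered background, normalization, detection, pixel means, the authors' values, left-out arrays, blocks and moderation. The mature miR-130a-3p sequence is not printed, and 1 further list of miRNAs, with its brightest probes, is not reported here.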

Additional observations from a re-analysis of the deposited data

How the results depend on the processing

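Of all tested probes 1 was called in the main analysis. The number was 3 without background correction, 2 with median scaling, 3 with the 75th percentile, 4 with cyclic loess and 47 with slide position as a random block. It was 0 without normalization, with spike control scaling, without a detection filter, for detection on all 6 arrays, with pixel means, with the authors' values, at positions 3 and 4 only, with trend and robust moderation and with the replicate block, and 0 to 3 when 1 array was left out (3 without cisplatin replicate 2, 2 without control replicate 1). Of the members 1, miR-130a-3p, was called with position as a random block (0.32), and 0 to 1 when 1 array was left out (log2 fold change 0.30 to 0.43). The call with an array left out was that without control replicate 1, where its normalized values had no spread within either group. The replicate block left miR-130a-3p uncalled (limma adjusted p = 0.185) and changed no call among the members. The median of the tested members became 0.00065 without background correction, 0.031 without normalization, 0.048 with median scaling, 0.055 with the 75th percentile, 0.0091 with the trimmed blank limit, 0.055 with the authors' values and 0.15 at positions 1 and 2 only, and ran from -0.085 to 0.089 with 1 array left out. miR-301a-3p stood at 0.021, 0.038, 0.045 and 0.051 without normalization, with median scaling, the 75th percentile and the authors' values, all negative relative to the shift of all tested probes (0.071, 0.088, 0.095 and 0.10), and at 0.13 at positions 1 and 2. miR-301b turned with spike control scaling (-0.14, where the shift was -0.11), with pixel means (-0.033) and with 1 array left out (-0.025 to 0.20). miR-454-3p turned with spike control scaling (-0.042, or 0.069 relative to the shift of all tested probes). In the order of the first 4 settings of miR-301a-3p, the miR-19 median was -0.10, -0.087, -0.080 and -0.14. Relative to the shift of all tested probes it was -0.18, -0.18, -0.18 and -0.25. Between members, miR-130b-3p over miR-301b gave 0.14 with pixel means and -0.24 to 0.076 with 1 array left out, miR-301a-3p over miR-301b gave 0.18 and -0.19 to 0.12, and miR-130b-3p over miR-301a-3p gave 0.0016 at positions 3 and 4. Scaling cannot change these ratios. Where not stated, the cause was not tested. Signal near the blank-spot limit bounds what can be said of miR-301b, miR-454-3p and the 5p arms.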
